A study of Homo sapiens with 2 samples.

Results

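Mitochondrial protein import and quality control genes were compared between Huh7 cells kept for 48 h with homochlorcyclizine dihydrochloride and Huh7 cells kept for 48 h with DMSO, the solvent control. Huh7 is an established human hepatocellular carcinoma line, and homochlorcyclizine is an antihistamine of the piperazine type. The labels state no dose. Poly(A)-selected mRNA was sequenced from 1 library in each group, so all differences are those of 2 libraries, without a replicate check. The members were all rows of the count table whose symbol begins with TOMM or TIMM followed by a digit, which gave 25 genes, and 17 chaperone, peptidase, protease and membrane genes named singly. These are 42 of 19927 genes in the table. Of the 42, 41 averaged 1 or more CPM (counts scaled to the library size) over both libraries, as did 12353 genes in all, and these were described by size. The remaining member, TOMM20L, a paralog of the receptor TOMM20, had 7 counts in the homochlorcyclizine library and 11 in the DMSO library.

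Nearly all mitochondrial proteins are encoded in the nucleus, made in the cytosol and imported. The TOM complex of the outer membrane receives them, the TIM23 complex passes those with a presequence into the matrix, and small TIM chaperones carry membrane proteins across the intermembrane space to the TIM22 complex. In the matrix, mtHSP70 pulls the chain in, the processing peptidase cuts the presequence off, and the HSP60 barrel with its HSP10 lid folds the product. ATP-dependent proteases remove what is misfolded or no longer needed. Liver cells are rich in mitochondria, and urea synthesis and fatty acid oxidation depend on imported enzymes.

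Counts summed to 40791119 with homochlorcyclizine, where 15443 genes were detected, and to 38133894 with DMSO, where 15312 were. All 6 hepatocyte lineage genes examined were present, at between 150 and 8540 CPM in the homochlorcyclizine library and between 145 and 11781 CPM in the DMSO library. The 9 markers of leukocytes, endothelium and fibroblasts summed to 33.7 CPM with homochlorcyclizine and 36.7 CPM with DMSO, with none at 0 in both libraries. Among them CD68 was at 17.0 CPM with homochlorcyclizine and 13.9 CPM with DMSO and PECAM1 at 5.63 CPM with homochlorcyclizine and 11.7 CPM with DMSO. Their part in the results was not tested. In bulk RNA a smaller share of cells with a transcript and less of it per cell cannot be told apart.

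Most import and folding genes were lower in the homochlorcyclizine library, by less than 2-fold. Of the 41 genes, 34 had a ratio of homochlorcyclizine to DMSO below 1, where 51.1% of all 12353 genes did. Of the 41, 31 had a 95% counting interval below 1, against 40.0% of all genes, and 6 had one above 1, against 37.8%. A ratio at least 1.5-fold lower, with an interval that excluded 1, was met by 13 members, which is 31.7% of them, where 14.1% of all genes met it. None was at least 1.5-fold higher, where 14.1% of all genes were. None reached 2-fold in either direction, where 5.10% of all genes were at least 2-fold lower and 5.81% at least 2-fold higher. With a trend over GC content and length removed, an alternative chosen after seeing the data, 8 members were at least 1.5-fold lower, where 13.2% of all genes were, and TOMM5, TOMM34, TIMM17A, TIMM10 and OMA1 were not among them. The median log2 ratio was -0.36 over the members and -0.01 over all genes tested, and the members ran from -0.90 to 0.34. The intervals cover counting error only and the spread between cultures was not measured.

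**Figure D1:**
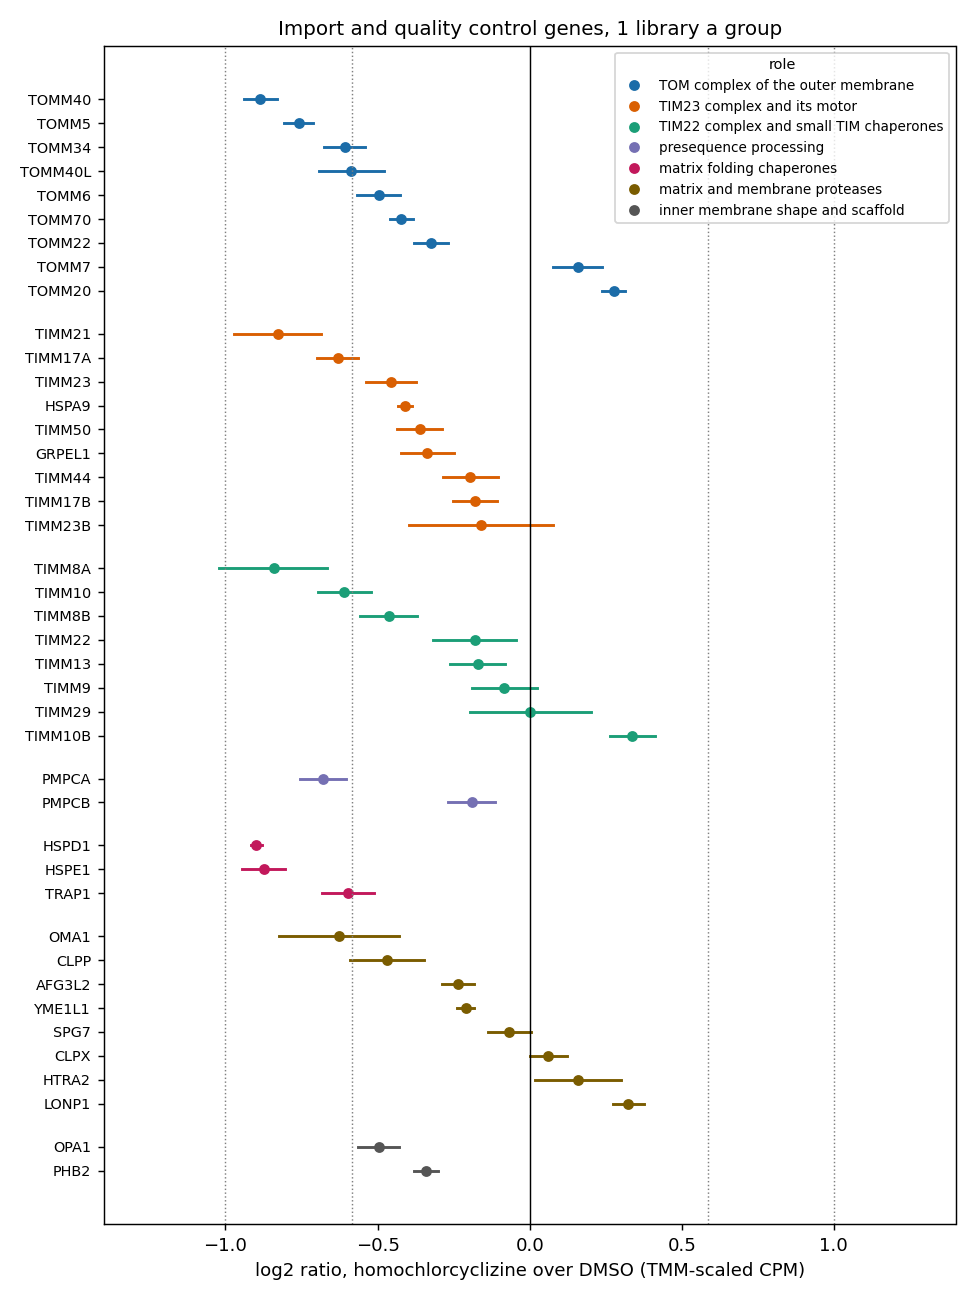
The log2 ratio of homochlorcyclizine over DMSO is plotted for the 41 genes that averaged 1 CPM or more, grouped by role, with bars for the 95% counting interval and dotted lines at 1.5-fold and 2-fold in both directions. HSPD1 is lowest at -0.90 and TIMM10B highest at 0.34, and no point passes a 2-fold line; TOMM34 is drawn with the TOM genes by its symbol.

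Together the 41 genes took 0.520% of all counts in the homochlorcyclizine library and 0.714% in the DMSO library. Their summed level was 5215 CPM with homochlorcyclizine and 7125 CPM with DMSO, a ratio of 0.732. HSPD1 alone held a large part of that sum, and the other 40 genes summed to 4175 CPM with homochlorcyclizine and 5184 CPM with DMSO, a ratio of 0.805. Level did not order the ratios: across the 41 genes, which share both libraries, mean CPM and log2 ratio had a Spearman's rho of -0.07. The 12 members that averaged 100 CPM or more had a median log2 ratio of -0.33 and the 29 below it one of -0.45, while the 2327 genes of at least 100 CPM in the whole table had a median of 0.00.

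HSPD1 and HSPE1, which encode the HSP60 barrel and its HSP10 lid, lie head to head on chromosome 2 of GRCh38. HSPD1 spans 197486584 to 197500274 on the minus strand and HSPE1 spans 197500379 to 197503449 on the plus strand, so 104 bases separate their annotated starts. That stretch is shown because both genes read away from it and their ratios lay close together. It is given 5′ to 3′ on the HSPE1 strand, chr2:197500275-197500378, from RefSeq GRCh38.p14. Capitals mark the core of an NRF1 site (GCGCANGC on either strand) and an E-box (CACGTG).
HSPD1 and HSPE1: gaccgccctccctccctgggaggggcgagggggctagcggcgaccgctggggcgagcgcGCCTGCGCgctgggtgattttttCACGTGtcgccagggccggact

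HSPD1 was at 1041 CPM in the homochlorcyclizine library and 1941 CPM in the DMSO library, from 42371 counts with homochlorcyclizine and 74155 with DMSO. Its ratio was 0.536, with an interval of 0.530 to 0.543, the lowest of the 41. With the GC and length trend removed HSPD1 stood at a log2 ratio of -0.77 and TOMM40, at -1.01, was the lowest. HSPE1 was at 63.6 CPM with homochlorcyclizine and 117 CPM with DMSO, a ratio of 0.545 (0.519 to 0.572). The 2 ratios differed by a factor of 0.984 (0.936 to 1.03), an interval that includes 1. With the trend removed the factor was 0.913 (0.869 to 0.960), which excludes 1. HSPE1 then stood at a log2 ratio of -0.64, above its interval. Per transcript length, HSPD1 was the most abundant member in both libraries, at 457 FPKM with homochlorcyclizine and 856 FPKM with DMSO, and HSPE1 stood at 114 FPKM with homochlorcyclizine and 210 FPKM with DMSO. The HSPE1 level is uncertain, since 23.9% of its exon bases lie in exons of other coding genes. HSPD1 itself, on the opposite strand, holds 14.2% of them, and HSPE1-MOB4, a read-through gene listed with 0 counts in both libraries, 9.71%. The labels do not say whether counting used strand, so HSPD1 reads may be part of the HSPE1 count, and their part in the likeness of the 2 ratios was not tested.

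TRAP1, the mitochondrial HSP90, was at 46.3 CPM with homochlorcyclizine and 70.1 CPM with DMSO, a ratio of 0.661 (0.622 to 0.701). All 3 matrix folding chaperones were thus at least 1.5-fold lower, where 14.1% of all genes were. Of the TRAP1 exon bases, 29.3% lie in a coding gene on the opposite strand. With upper-quartile scaling TRAP1, at a log2 ratio of -0.57, fell just short of that size. HSPA9, the mtHSP70 that drives import and also folds proteins, was lower by less, at 714 CPM with homochlorcyclizine and 947 CPM with DMSO (ratio 0.753, 0.742 to 0.765). GRPEL1, its nucleotide exchange factor, was at 48.6 CPM with homochlorcyclizine and 61.3 CPM with DMSO (ratio 0.792, 0.745 to 0.841). The ratios of HSPA9 and GRPEL1 differed by a factor of 0.951 (0.894 to 1.01), which includes 1, and with the trend removed by 0.912 (0.858 to 0.970), which does not.

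Genes of the TOM complex stood on both sides of 1. TOMM40, the channel of the outer membrane (chromosome 19, 44891254 to 44903689), was at 103 CPM in the homochlorcyclizine library and 190 CPM in the DMSO library. Its ratio of 0.542 (0.521 to 0.563) was the second lowest of all members. TOMM20, the receptor that first binds presequences (chromosome 1, 235109341 to 235128837), was higher, at 322 CPM with homochlorcyclizine and 266 CPM with DMSO (ratio 1.21, 1.18 to 1.24). Channel to receptor, the FPKM values stood at 0.502 with homochlorcyclizine and 1.12 with DMSO, so the order of the 2 genes per length was reversed between the libraries. The ratio of TOMM40 was 0.447 of that of TOMM20 (0.427 to 0.468), a quantity that scaling of the libraries does not touch.

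Among the other TOM subunits, TOMM70, the receptor for carrier precursors, was at 249 CPM with homochlorcyclizine and 334 CPM with DMSO (ratio 0.746, 0.727 to 0.766). TOMM22, the central receptor that joins the channels, was at 123 CPM with homochlorcyclizine and 155 CPM with DMSO (ratio 0.799, 0.769 to 0.830). The small subunits, which help the complex assemble or stay stable, did not move together. TOMM5 was at 151 CPM with homochlorcyclizine and 255 CPM with DMSO (ratio 0.591, 0.572 to 0.610), and TOMM6 at 71.0 CPM with homochlorcyclizine and 100 CPM with DMSO (ratio 0.709, 0.675 to 0.744). TOMM7, which also takes part in holding PINK1 at the outer membrane, was at 68.6 CPM with homochlorcyclizine and 61.5 CPM with DMSO (ratio 1.12, 1.06 to 1.18). With the GC and length trend removed TOMM6 stood at a log2 ratio of -0.15 and TOMM7 at 0.52, both above their intervals. The ratio of TOMM5 was 0.529 of that of TOMM7 (0.497 to 0.564). All exon bases of TOMM6 also belong to another annotated coding gene, so its count may be incomplete. For TOMM5, 81.9% of the 100-base runs in its longest annotated transcript occur in other genes, so its count is uncertain too.

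TOMM34, a cytosolic co-chaperone despite its name, was at 75.5 CPM with homochlorcyclizine and 115 CPM with DMSO (ratio 0.656, 0.626 to 0.687). TOMM40L, a paralog of the channel, was at 30.0 CPM with homochlorcyclizine and 45.0 CPM with DMSO (ratio 0.666, 0.618 to 0.717). The call of TOMM40L was marginal: its log2 ratio was -0.59, and it fell short of 1.5-fold with DESeq2 size factors (-0.58), a prior count of 5 (-0.58) and upper-quartile factors (-0.56). A coding gene on the opposite strand holds 20.1% of its exon bases. TOMM34, TOMM40L, TOMM40 and TOMM5 were the 4 of 9 tested genes with a TOMM symbol that were at least 1.5-fold lower, where 14.1% of all genes were. With the GC and length trend removed TOMM5 (-0.43) and TOMM34 (-0.57) were under 1.5-fold. Both TOMM20 and TOMM7 had intervals above 1, and the median log2 ratio of the 9 was -0.50.

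Promoters of TOMM40 and TOMM20 are shown because the genes of one complex stood on opposite sides of 1, and that of LONP1, the matrix protease, because it was among the few higher members. Each run is the 250 bases before an annotated start, 5′ to 3′ on the gene's own strand, from RefSeq GRCh38.p14, with NRF1 cores and E-boxes in capitals. LONP1 has 2 starts in that table, at 5720146 and 5720452, and the run shown belongs to 5720146, which is not the outer end of the gene. The runs are chr19:44891004-44891253 on the plus strand, chr1:235128838-235129087 on the minus strand and chr19:5720147-5720396 on the minus strand.
TOMM40: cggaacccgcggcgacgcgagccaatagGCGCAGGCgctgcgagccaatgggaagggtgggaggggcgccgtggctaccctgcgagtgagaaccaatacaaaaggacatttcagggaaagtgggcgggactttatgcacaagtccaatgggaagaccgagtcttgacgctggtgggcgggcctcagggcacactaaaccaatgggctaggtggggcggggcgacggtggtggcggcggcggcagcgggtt
TOMM20: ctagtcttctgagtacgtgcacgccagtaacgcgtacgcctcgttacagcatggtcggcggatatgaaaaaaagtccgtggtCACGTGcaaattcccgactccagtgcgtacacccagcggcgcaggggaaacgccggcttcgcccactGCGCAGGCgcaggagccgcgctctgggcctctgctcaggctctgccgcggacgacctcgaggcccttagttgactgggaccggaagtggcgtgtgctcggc
LONP1: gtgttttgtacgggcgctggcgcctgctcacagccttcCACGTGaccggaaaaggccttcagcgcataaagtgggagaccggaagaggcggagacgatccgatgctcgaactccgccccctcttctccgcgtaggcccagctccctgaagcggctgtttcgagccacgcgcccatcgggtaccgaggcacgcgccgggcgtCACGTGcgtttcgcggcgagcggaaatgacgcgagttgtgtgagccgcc

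The NRF1 core stood in the promoters of both TOMM40, which was lower, and TOMM20, which was higher, and in the stretch shared by HSPD1 and HSPE1. NRF1 is a transcription factor known for many nuclear genes of mitochondria. Of 37 members with an entry in the RefSeq promoter table, 36 averaged 1 CPM or more. No window was matched for TOMM5, GRPEL1, TIMM8B, CLPP and YME1L1. In windows from 250 bases before to 50 after the start, the NRF1 core was found in 15 of 36 (41.7%), where 21.5% of 10134 promoters of all genes tested held it, and 5 of the 12 members with a window that were at least 1.5-fold lower had it. HSPD1 and HSPE1 are counted there as 2 although their windows overlap. Where a gene had several windows, as 5 members and 2961 of all genes tested did, the first listed was used. With every window searched, an alternative chosen after seeing the data, the NRF1 core was in 16 of 36 members (44.4%, against 25.1% of all), and LONP1, which has none in the window shown, had 4 matches in that of its other start. An E-box was found in 7 (19.4%, against 10.2% of all) and an ETS site (CCGGAAG) in 14 (38.9%, against 19.4%). The CCAAT box (CCAAT) was found in 11 (30.6%, against 36.6%). A heat shock element of a pair of units (GAANNTTC or TTCNNGAA) was found in 4 (11.1%, against 9.89%), which were TOMM70, HSPA9, TIMM10 and PHB2. With every window searched HSPD1 joined them, with 3 matches in the window of its other start at 197499840, and the share was 13.9%, against 13.8% of all. The composite element of CHOP and ATF4 (TGATGNAA) stood in the windows of TIMM22 and PMPCB (5.56%, against 1.75%). With every window searched it stayed in those 2 members, against 2.89% of all, and the E-box in 7 (19.4%, against 12.7%). The ETS site was then in 15 (41.7%, against 22.4%) and the CCAAT box in 11 (30.6%, against 43.3%). The paralogs TIMM23 and TIMM23B are both counted for the ETS site. All motifs were searched on both strands, a window can hold several, and a match of letters is not a binding site. The motifs were chosen with the data in view: a longer form of the NRF1 site was searched first and replaced by the core given here, and a longer heat shock element was searched and is not reported.

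**Figure D2:**
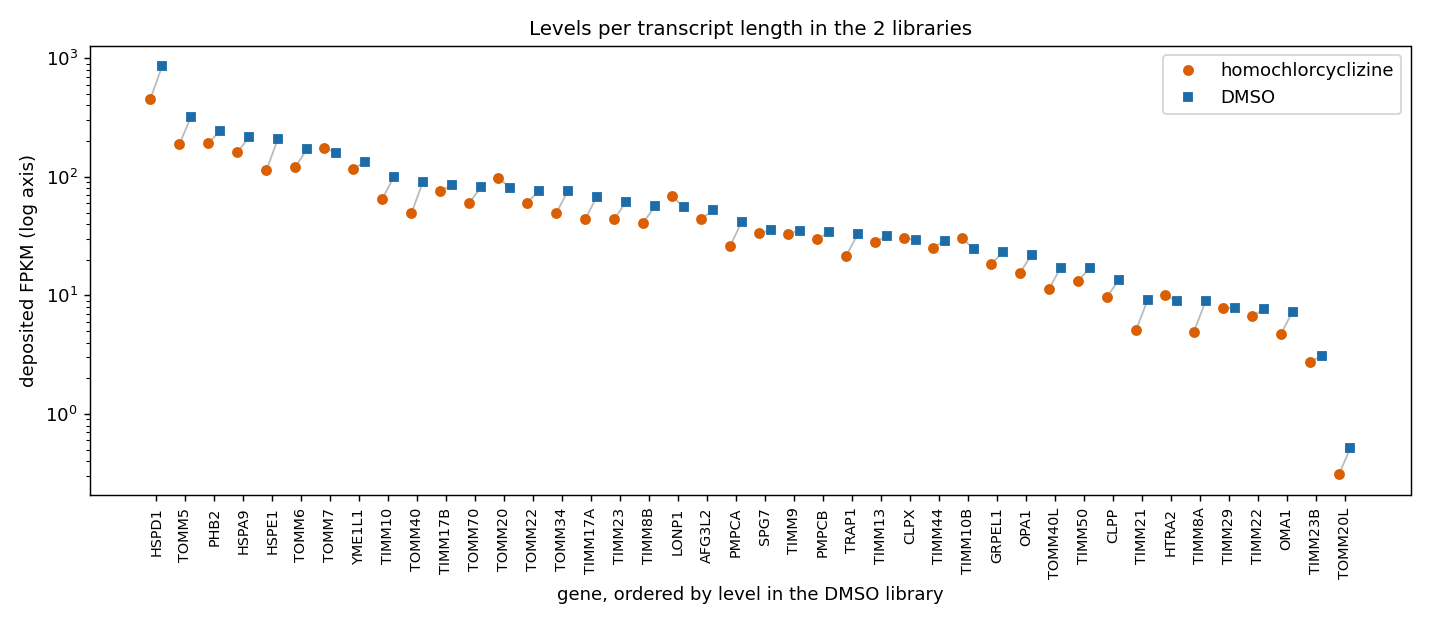
Deposited FPKM, which scales counts to transcript length and library total, is plotted on a log axis for all 42 genes, with homochlorcyclizine as circles left of DMSO as squares. HSPD1 leads at 457 FPKM with homochlorcyclizine and 856 FPKM with DMSO, TOMM20L is lowest at 0.310 FPKM with homochlorcyclizine and 0.521 FPKM with DMSO, and TOMM20, TOMM7, LONP1 and TIMM10B are among the few with the circle above the square.

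All 9 genes of the TIM23 complex and its motor had a ratio below 1, where 51.1% of all genes did. Of the 9, 8 had an interval below 1, against 40.0% of all genes. With the GC and length trend removed TIMM23B stood at a log2 ratio of 0.08, above 1. TIMM21, which links the complex to TOM and to the respiratory chain, was at 15.9 CPM with homochlorcyclizine and 28.2 CPM with DMSO (ratio 0.564, 0.510 to 0.622). TIMM17A, part of the channel, was at 72.6 CPM with homochlorcyclizine and 112 CPM with DMSO (ratio 0.646, 0.616 to 0.677). TIMM21 and TIMM17A were the 2 of 9 genes at least 1.5-fold lower, where 14.1% of all genes were. TIMM17B, the paralog of TIMM17A, was at 72.6 CPM with homochlorcyclizine and 82.2 CPM with DMSO (ratio 0.883, 0.839 to 0.928). The ratio of TIMM17A was 0.732 of that of TIMM17B (0.683 to 0.784), and per length TIMM17A to TIMM17B stood at 0.581 with homochlorcyclizine and 0.794 with DMSO. The TIM23 complex holds one or the other paralog.

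TIMM23, the other channel protein, was at 53.8 CPM with homochlorcyclizine and 73.7 CPM with DMSO (ratio 0.730, 0.689 to 0.772). TIMM23B, its paralog on the same chromosome, was at 7.17 CPM with homochlorcyclizine and 8.01 CPM with DMSO (ratio 0.896, 0.760 to 1.05). Of the 100-base runs in their longest annotated transcripts, 4.90% for TIMM23 and 8.07% for TIMM23B also occurred in other genes, so some reads may be split, and the sum of both gave a ratio of 0.746 (0.707 to 0.786). TIMM50, the receptor that faces the intermembrane space, was at 66.4 CPM with homochlorcyclizine and 85.3 CPM with DMSO (ratio 0.778, 0.739 to 0.819). TIMM44, which anchors mtHSP70 at the channel, was at 46.6 CPM with homochlorcyclizine and 53.4 CPM with DMSO (ratio 0.873, 0.820 to 0.930).

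Small TIM chaperones and the TIM22 complex ran from a log2 ratio of -0.84 to 0.34, with a median of -0.18 over 8 genes. TIMM8A, the chaperone mutated in deafness-dystonia syndrome, was at 10.3 CPM with homochlorcyclizine and 18.6 CPM with DMSO (ratio 0.558, 0.493 to 0.630). TIMM10 was at 45.7 CPM with homochlorcyclizine and 69.8 CPM with DMSO (ratio 0.656, 0.618 to 0.696). TIMM8A and TIMM10 were the 2 of 8 genes at least 1.5-fold lower, where 14.1% of all genes were. TIMM9, which forms a hexamer with TIMM10, was at 34.7 CPM with homochlorcyclizine and 36.7 CPM with DMSO (ratio 0.944, 0.876 to 1.02), an interval that includes 1. The ratio of TIMM10 was 0.694 of that of TIMM9 (0.632 to 0.763). Of the TIMM9 exon bases, 26.4% lie in other coding genes on the opposite strand.

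TIMM8B, a paralog of TIMM8A, was at 40.4 CPM with homochlorcyclizine and 55.7 CPM with DMSO (ratio 0.726, 0.680 to 0.774). With the GC and length trend removed TIMM8B stood at a log2 ratio of -0.12, above that interval. TIMM13, the hexamer partner of TIMM8A, was at 46.9 CPM with homochlorcyclizine and 52.8 CPM with DMSO (ratio 0.888, 0.834 to 0.946). The ratio of TIMM8B was 0.817 of that of TIMM13 (0.747 to 0.893), and with the trend removed it was 1.11 of it (1.01 to 1.21), the opposite direction. Of the exon bases of TIMM8B, 32.3% lie in other coding genes, all on the opposite strand. Of those of TIMM13, 28.9% do, among them in TMPRSS9 on the opposite strand. The labels do not say whether counting used strand. TIMM22, the channel for carrier proteins, was at 21.3 CPM with homochlorcyclizine and 24.2 CPM with DMSO (ratio 0.882, 0.803 to 0.968). TIMM29, a subunit of the same complex, was at 10.6 CPM in both libraries (ratio 1.00, 0.872 to 1.15). TIMM10B, a small TIM attached to TIM22, was the highest of all members by ratio, at 85.9 CPM with homochlorcyclizine and 68.0 CPM with DMSO (ratio 1.26, 1.20 to 1.33). With the GC and length trend removed TIMM10B stood at a log2 ratio of 0.41 and TOMM7, at 0.52, was the highest. Exons of 2 other annotated coding genes, one on each strand, together hold 14.6% of the TIMM10B exon bases.

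The processing peptidase has an alpha and a beta subunit, which bind and cut the presequence. PMPCA, the alpha subunit, was at 56.3 CPM with homochlorcyclizine and 90.1 CPM with DMSO (ratio 0.624, 0.592 to 0.658). PMPCB, the catalytic beta subunit, was at 62.9 CPM with homochlorcyclizine and 71.8 CPM with DMSO (ratio 0.876, 0.830 to 0.925). With the GC and length trend removed PMPCB stood at a log2 ratio of 0.01, outside that interval. Of the PMPCB exon bases, 13% lie in a coding gene on the opposite strand. Alpha to beta, the FPKM values stood at 0.877 with homochlorcyclizine and 1.23 with DMSO, and the ratio of PMPCA was 0.713 of that of PMPCB (0.661 to 0.769).

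**Figure D3:**
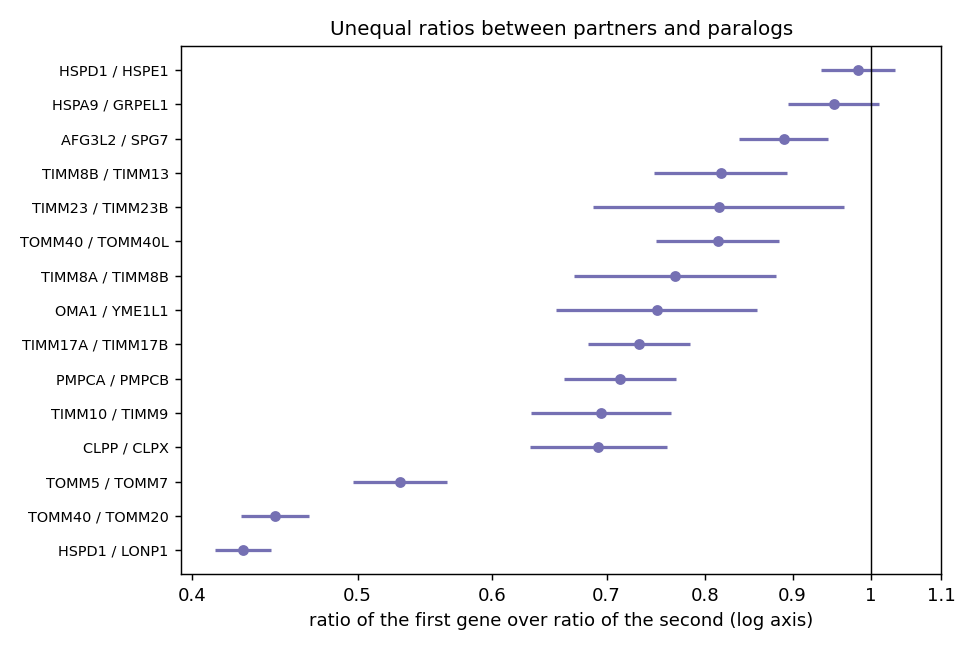
For 15 pairs of partners or paralogs, the ratio of the first gene (homochlorcyclizine over DMSO) divided by that of the second is plotted on a log axis with its 95% counting interval. The pairs were chosen after their values were seen and the gene with the lower ratio stands first, so all points lie left of 1, and HSPD1 with HSPE1 (0.984) and HSPA9 with GRPEL1 (0.951) are the pairs whose interval includes 1 without removal of the GC and length trend.

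By their median, the 8 protease members lay nearer to 1 than the 3 folding chaperones. The median log2 ratio of the proteases was -0.14, against -0.87 over the folding chaperones. Single genes overlapped, with the protease OMA1 at -0.63 and the chaperone TRAP1 at -0.60. HSPA9, which also folds proteins but was grouped with the import motor, stood at -0.41. Outside the members the medians were alike, at -0.54 over 9 other peptidases and -0.54 over 6 other chaperones and scaffold proteins. Of the 8 protease members, 1 was at least 1.5-fold lower, where 14.1% of all genes were. LONP1, the main ATP-dependent protease of the matrix (chromosome 19, 5691834 to 5720452), was at 175 CPM with homochlorcyclizine and 140 CPM with DMSO (ratio 1.25, 1.21 to 1.30). With the GC and length trend removed LONP1 stood at a log2 ratio of 0.14, below that interval. The ratio of HSPD1 was 0.428 of that of LONP1 (0.413 to 0.445), and 0.533 of it with the trend removed (0.513 to 0.553). Per length, HSPD1 stood 6.62-fold above LONP1 with homochlorcyclizine and 15.5-fold above it with DMSO.

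CLPX, the unfoldase of the CLPXP protease, was at 119 CPM with homochlorcyclizine and 114 CPM with DMSO (ratio 1.04, 1.00 to 1.09, with 1 just outside the interval). CLPP, its peptidase, was at 23.9 CPM with homochlorcyclizine and 33.1 CPM with DMSO (ratio 0.723, 0.664 to 0.786), and the ratio of CLPP was 0.692 of that of CLPX (0.631 to 0.760). HTRA2, the serine protease of the intermembrane space, was at 22.1 CPM with homochlorcyclizine and 19.8 CPM with DMSO (ratio 1.12, 1.01 to 1.23). Of its exon bases, 36.9% lie in other coding genes.

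In the inner membrane, AFG3L2 and SPG7 form the m-AAA protease, whose active sites face the matrix. AFG3L2 was at 135 CPM with homochlorcyclizine and 159 CPM with DMSO (ratio 0.849, 0.818 to 0.881), and SPG7 at 83.0 CPM with homochlorcyclizine and 86.9 CPM with DMSO (ratio 0.955, 0.910 to 1.00, with 1 inside the interval). The ratio of AFG3L2 was 0.889 of that of SPG7 (0.837 to 0.944), and 0.980 of it with the trend removed (0.922 to 1.04), which includes 1. Of the AFG3L2 exon bases, 12.6% lie in a coding gene on the opposite strand. YME1L1, the i-AAA protease that faces the intermembrane space, was at 491 CPM with homochlorcyclizine and 568 CPM with DMSO (ratio 0.864, 0.848 to 0.881). OMA1, the stress-activated protease that cuts OPA1, was at 8.79 CPM with homochlorcyclizine and 13.6 CPM with DMSO (ratio 0.648, 0.564 to 0.742). OMA1 was also low per length, at 4.72 FPKM with homochlorcyclizine and 7.31 FPKM with DMSO, where YME1L1, which cuts OPA1 at another site, stood at 116 FPKM with homochlorcyclizine and 135 FPKM with DMSO.

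OPA1, the dynamin-like protein that fuses inner membranes and keeps cristae narrow, was at 75.0 CPM with homochlorcyclizine and 106 CPM with DMSO (ratio 0.709, 0.676 to 0.743). PHB2, a subunit of the prohibitin ring that scaffolds the inner membrane and holds the m-AAA protease, was at 227 CPM with homochlorcyclizine and 287 CPM with DMSO (ratio 0.790, 0.768 to 0.812). In FPKM it ranked 2 of the 42 genes with homochlorcyclizine and 3 with DMSO.

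Beyond the 42 genes, 54 other symbols of import, processing, membrane dynamics and mitochondrial stress signalling were listed, and 50 averaged 1 CPM or more. Of these 50, 36 had a ratio below 1, where 51.1% of all genes did, with a median log2 ratio of -0.21. The 7 at least 1.5-fold lower and the 5 at least 1.5-fold higher compare with 14.1% of all genes in each direction, and the 2 at least 2-fold higher with 5.81%, so these counts are near or under the background. One gene, PHB1, was listed under 2 symbols, the older being PHB, and 3 genes were under 1 CPM. The medians of the import, processing and chaperone sublists lay between -0.54 and -0.16, that of fusion, fission and mitophagy genes was -0.15 with 6 of 11 below a ratio of 1, and that of stress signalling genes was 0.30.

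**Figure D4:**
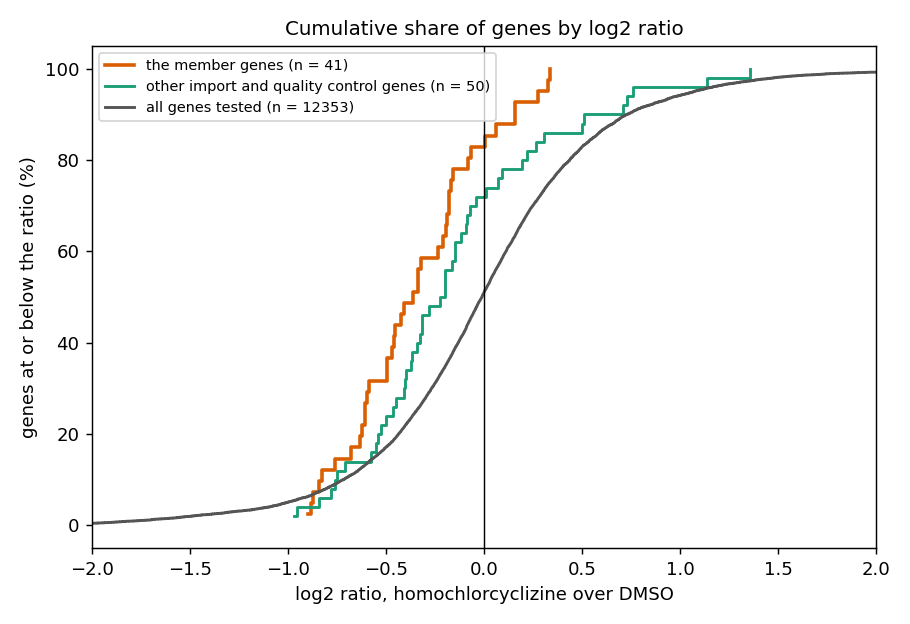
The cumulative percentage of genes is plotted against the log2 ratio of homochlorcyclizine over DMSO for the 41 member genes, 50 other import and quality control genes and 12353 genes tested. The member curve reaches 82.9% at a ratio of 1, where the curve of all genes is at 51.1%, and ends at 0.34.

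All 5 genes listed under intermembrane space import, not all of them parts of the import machinery, had an interval below 1, where 40.0% of all genes did. CHCHD4, the oxidoreductase that traps small proteins there, was at 34.4 CPM with homochlorcyclizine and 61.8 CPM with DMSO (ratio 0.557, 0.521 to 0.596). AIFM1, which anchors CHCHD4, had a ratio of 0.733, CHCHD2 one of 0.756 and GFER, which reoxidises CHCHD4, one of 0.771. In the sorting and assembly machinery of the outer membrane, 4 of 5 had an interval below 1, against the same 40.0%. SAMM50, its channel, had a ratio of 0.725, MTX3 one of 0.694, MTX2 one of 0.789 and the insertase MTCH2 one of 0.939.

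All 9 other peptidases had a ratio below 1, against 51.1% of all genes, and 4 were at least 1.5-fold lower, against 14.1%. MIPEP, which trims presequences after the processing peptidase, was at 12.7 CPM with homochlorcyclizine and 24.9 CPM with DMSO (ratio 0.510, 0.457 to 0.568). ATP23, XPNPEP3 and IMMP1L had ratios of 0.516, 0.594 and 0.581. Of the 6 other chaperones and scaffold proteins, 5 had an interval below 1, against 40.0% of all genes, with ratios of 0.590 for LETM1, 0.612 for the disaggregase CLPB, 0.670 for STOML2 and 0.708 for DNAJA3, the mitochondrial HSP40. Among 7 tested motor and insertion genes, AGK had a ratio of 0.682, ROMO1 one of 0.803 and DNAJC19 one of 0.855, while GRPEL2, the paralog of GRPEL1, was at 1.16 (1.09 to 1.24). Of these 7, 3 had an interval below 1, against 40.0% of all genes, and 2 had one above 1, against 37.8%. These counts are near the background.

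In the mitophagy and signalling sublists the genes with the largest differences were higher. BNIP3L, a mitophagy receptor, was at 178 CPM with homochlorcyclizine and 69.4 CPM with DMSO (ratio 2.56, 2.45 to 2.68). PINK1, the kinase that accumulates when import through TOM fails, was at 48.6 CPM with homochlorcyclizine and 28.7 CPM with DMSO (ratio 1.69, 1.57 to 1.83), and BNIP3 and MIEF2 had ratios of 1.41 and 1.42. Of 7 signalling genes, 5 had an interval above 1, where 37.8% of all genes did. ATF4 was at 892 CPM with homochlorcyclizine and 539 CPM with DMSO (ratio 1.66, 1.63 to 1.68), CEBPB had a ratio of 1.63 and DDIT3, which encodes CHOP, one of 2.20. HSF1, the heat shock factor, was at 54.3 CPM with homochlorcyclizine and 44.0 CPM with DMSO (ratio 1.23, 1.16 to 1.32), beside the lower HSPD1 and HSPE1. Of the listed genes under 1 CPM, PAM16 had 2 counts with homochlorcyclizine and 5 with DMSO, and SPATA18 had 8 with homochlorcyclizine and 0 with DMSO.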

How the data were processed

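The authors deposited raw counts per gene for both libraries in 1 table and FPKM values in 1 table per library; the labels tie the columns to the samples. Per the submitters' processing notes the build was hg38. No aligner, counter, strand setting or annotation is named there or in the labels. The ratio of deposited FPKM differed from that of counts scaled to totals by at most 3.13e-05% in 14778 genes. FPKM was used to compare levels between genes and, as an alternative, for the ratios. Libraries were scaled with TMM factors (edgeR 4.0.16, R 4.3.3). Ratios had a prior count of 1, and 95% intervals were exact (Clopper-Pearson, on the summed count; Python 3.11.15, scipy 1.17.1). Intervals for a ratio of 2 genes' ratios used a normal approximation on the log scale. All intervals cover counting error only. With 1 library a group there was no test and no p-value. Calls were 1.5-fold or 2-fold with an interval excluding 1. The steps were tested on simulated data. Members and lists were chosen with earlier results of these data known. All members are given. Up to 4 genes of each other sublist, those with the largest absolute log2 ratio, are named. The values of 1 listed gene under 1 CPM are not reported here. Exon overlap used GENCODE 29. Gene coordinates and promoters are from RefSeq GRCh38.p14, counted from 1.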

Additional observations from a re-analysis of the deposited data

How the results depend on the processing

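No paired analysis was possible because each group has 1 library. In all, 14 alternatives were tried, 4 of them added after seeing the data. Under library totals, DESeq2 size factors (DESeq2 1.42.0), upper-quartile factors, deposited FPKM, prior counts of 0.25 and 5, no filter and a filter of 5 CPM, between 9 and 13 members were at least 1.5-fold lower, 34 or 35 had a ratio below 1, and the median log2 ratio lay between -0.39 and -0.33. Over all genes, between 12.9% and 14.3% were at least 1.5-fold lower under these settings and between 48.6% and 52.0% were below 1. TOMM34, TOMM40L, TIMM10 and TRAP1, all near the limit, were under 1.5-fold with upper-quartile factors, and TOMM40L also with DESeq2 size factors and a prior count of 5. With TOMM and TIMM genes alone, 8 of 24 genes passed 1.5-fold downward and 20 were below 1, counts that are smaller because fewer genes entered. With a trend over GC content and transcript length removed, over 11945 genes with a GENCODE 29 transcript, the median was -0.26 (all genes -0.01). There 31 members were below 1, where 51.2% of all genes were, and 8 were at least 1.5-fold lower, where 13.2% were. Of the members 1, TOMM40 (-1.01), was at least 2-fold lower, where 4.95% of all genes were. TOMM5, TOMM34, TIMM17A, TIMM10 and OMA1 were then under 1.5-fold, and the cause was not tested. The 29 tested members with under 10% of exon bases in another coding gene and under 10% of 100-base runs shared with other transcripts gave 9 at least 1.5-fold lower and a median of -0.36. Without HSPD1 and HSPE1, 11 of 39 were at least 1.5-fold lower. For these subsets of members, as for the TOMM and TIMM genes alone, the share over all genes was 14.1% at least 1.5-fold lower and 51.1% below 1. Of 295 single-gene values under these settings, 270 stayed within the counting interval and 25 left it. Of those 25, 22 fell under the trend, which gave 1 value for each of the 42 members. Library totals and deposited FPKM gave nearly the same ratios, and the other scalings and prior counts shifted most genes little. The 270 therefore say little about stability. No gene at least 1.5-fold lower changed direction. Under the trend TIMM9 (0.21), TIMM23B (0.08) and PMPCB (0.01) stood above 1. Of 15 pair ratios, that of TIMM8B over TIMM13 turned above 1 under the trend (1.11), AFG3L2 over SPG7 came to include 1, and HSPD1 over HSPE1 and HSPA9 over GRPEL1 came to exclude it. Depth limited TOMM20L, TIMM23B and TIMM29 most.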
